A study of Mus musculus with 8 samples.

Results

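The cardiac myosin heavy chain locus of the mouse holds Myh6, Myh7 and the noncoding RNA Mhrt side by side, and it was followed here through 2 deposited tables of N6-methyladenosine (m6A) peaks. All rows whose gene ID is that of one of these 3 genes on chromosome 14 (build mm10) were taken, which gave 19 of the 581 peaks in both tables. The table of infarcted against sham-operated hearts held 8 of them among 116 peaks, with 1 in Myh6, 6 in Myh7 and 1 in Mhrt. The table of aavFto against aavgnp hearts held 11 among 465 peaks, with 5 in Myh6, 5 in Myh7 and 1 in Mhrt.

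The peaks came from MeRIP-seq, which sequences RNA fragments caught by an m6A antibody and, as the input, fragments that skipped this pulldown. All 4 groups were left ventricles of wild-type C57BL/6 mice, labelled with a time of 1 week after myocardial infarction (MI). They were sham-operated hearts, hearts with MI, hearts with MI and aavgnp, and hearts with MI and aavFto, each with 1 input and 1 MeRIP library. The labels expand neither aavFto nor aavgnp, and the former is taken to be a vector that carries Fto and the latter its comparison. They name no promoter of the vector and do not say whether animals were pooled. The 2 comparisons share no library.

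The tables hold 1 value per peak and comparison and none per library, and no group has a replicate, so no difference below has a replicate check. A positive log2 change was taken to mean a higher value after MI, or with aavFto. The file headers do not state this, and if it were the reverse, all rises and falls of that table would swap. A peak was called changed at a false discovery rate (FDR) under 0.05 in the authors' test, which compares libraries and not animals. The depth of the libraries is unknown. Transcript levels were not analysed here, so a change in m6A and a change in the amount of RNA cannot be told apart. In these bulk samples fewer cells of a type and less RNA per cell cannot be told apart either.

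Myosin heavy chain is the motor protein of the thick filament. The adult mouse ventricle runs mainly on the fast alpha chain from Myh6, while the slow beta chain from Myh7 belongs to the fetal ventricle and returns in hearts under load or injury. Mhrt (Myheart) is a long noncoding RNA of cardiomyocytes transcribed on the strand opposite to Myh7, known for its binding to the chromatin remodeller Brg1. FTO is an enzyme that removes m6A from RNA, and methylation is placed mostly at short motifs of the DRACH family.

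The 3 genes lie in a row. Myh6 spans chromosome 14 from 54941921 to 54968017 on the minus strand, and Myh7 spans 54970684 to 54994626 on the same strand. Between them starts Mhrt, which spans 54968787 to 54974349 on the plus strand and runs for its last 3666 bp opposite to Myh7. Myh6 and Myh7 each carry a microRNA, Mir208a at 54949060 to 54949142 and Mir208b at 54975700 to 54975776, both on the strand of their host. Their mature 3p strands are printed because each lies inside a listed peak of its host and yet outside that peak's blocks, with the seed (bases 2 to 8) in capitals.
mmu-miR-208a-3p: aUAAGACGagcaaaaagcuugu
mmu-miR-208b-3p: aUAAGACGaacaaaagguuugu
Both have the seed UAAGACG, and they differ at 3 of 22 bases (RefSeq, GRCm38.p6, the assembly of mm10). No base of either hairpin was in a block of any of the 19 peaks. In the aavFto table the gap around Mir208a in Myh6 was 542 bp wide and that around Mir208b in Myh7 461 bp, and the block just 5′ of the gap was 197 nt long in both genes.

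**Figure D1:**
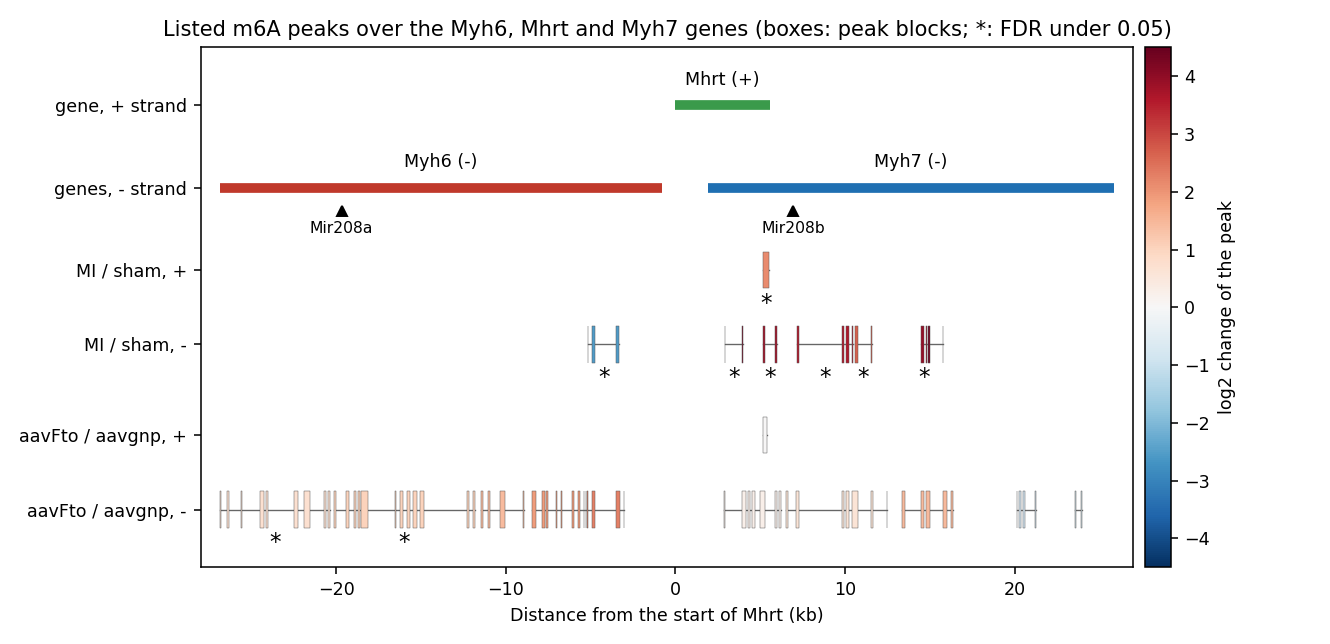
Map of the listed peaks over Myh6, Mhrt and Myh7, with distance from the start of Mhrt in kb on the horizontal axis and 1 row for each comparison and strand. Boxes are peak blocks coloured by the peak's log2 change, thin lines join the blocks of 1 peak, stars mark peaks with an FDR under 0.05 and triangles mark the microRNAs. The 6 Myh7 peaks of the MI table are all positive and its 1 Myh6 peak is negative, while 9 of the 11 aavFto peaks are positive.

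The blocks of a peak follow exons, so equal block lengths in the aavFto peaks of both paralogs describe exon sizes and not where m6A lies. The outer blocks of a peak can be cut exons, so only inner blocks were compared, 28 in Myh6 and 15 in Myh7. Of the 15 in Myh7, 14 had the same length as a Myh6 block in the same order, from 91 to 390 nt and 2779 nt in all per gene. Read from the 5′ end, these lengths were 139, 256, 243, 177, 91, 390, 127, 119, 197, 125, 309, 204, 126 and 276 nt. In the MI table Myh7 peaks shared at least 1 base with 11 of these 14 blocks of Myh7, and 1357 of the 2779 nt lay under them, from 3 of 256 nt in one block to all of the blocks of 119 and 127 nt. The single Myh6 peak of that table touched none of the 14 blocks of Myh6. Of the 1382 nt under Myh7 peaks in the MI table, 98.2% lay in these blocks. This share was largely given beforehand, since every Myh7 peak of the MI table lay wholly inside an aavFto-table peak. Reads of 50 nt can match both genes where the paralogs are alike in sequence, so the split of signal between Myh6 and Myh7 is uncertain. The sources used here do not say how the authors placed such reads.

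Sequence was at hand for 1 stretch of these peaks, in the block of 197 nt that lies next to Mir208b. It is shown because this block lies under a Myh7 peak in both tables, and that of the MI comparison was called. The stretch is chr14:54975879-54976070 on the minus strand, as transcribed into Myh7 RNA, read from RefSeq start-site windows of Gm31251, a noncoding gene that starts inside Myh7 on the plus strand. Capitals mark matches to the m6A consensus DRACH, in which D is any base but C, R is a purine and H is any base but G, so that 18 words of 5 bases qualify.
Myh7 block by Mir208b: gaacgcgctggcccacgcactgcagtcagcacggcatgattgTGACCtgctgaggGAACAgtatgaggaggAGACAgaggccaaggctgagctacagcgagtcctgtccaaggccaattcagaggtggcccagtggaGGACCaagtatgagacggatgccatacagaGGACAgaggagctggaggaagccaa
The first 111 bases from the 5′ end lie under the MI-table peak, and all 192 lie under the aavFto-table peak. There were 5 matches, none overlapping another, with TGACC at base 43, GAACA at 56 and AGACA at 72 in the MI-table part, and GGACC at 138 and GGACA at 168 beyond it. The other strand held 3 matches. Among 32851 RefSeq start-site windows trimmed to 192 bases, 95.3% held at least 1 match on the strand read, 95.3% held at least 1 on the other strand, and 28.3% held at least 5 on the strand read. A match is only a description of the letters, and no peak summit or single methylated base is given in the tables.

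The first comparison set m6A of hearts with MI against m6A of sham-operated hearts. Peaks of Myh7 and Mhrt rose after MI and the Myh6 peak fell. In all, 7 of the 8 peaks passed the FDR, 5 in Myh7 and 1 in Mhrt that rose and 1 in Myh6 that fell, where 14.7% of all 116 listed peaks passed. There, 12.9% of all peaks passed with a positive and 1.72% with a negative change. A positive sign alone says little, since 84.5% of all listed peaks were positive. The other 108 peaks of the table had 10 calls. Myh7 had the most peaks and the most bases under peaks of the 77 named genes.

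Myh7 was called at 5 of its 6 peaks. The centres of the called peaks ran from 46.7% to 93.5% of the gene span, counted from the 5′ end. Peak 6, nearest the 3′ end at 54971696 to 54972783, had in the authors' deposited table a log2 change of 4.35, a 20.4-fold higher value after MI, with an FDR of 1.26e-05. This peak had the third-smallest differential p of the table and the lowest enrichment of the 6, a fold over input of 12.7. For peak 5, at 54973935 to 54974749, the authors' deposited table had 3.80 (FDR 8.91e-05). Peak 4, at 54975960 to 54979230, holds part of the printed sequence, and its change in the authors' deposited table was 3.63 (FDR 4.79e-04). These 3 peaks lay between 71.1% and 93.5% of the gene span.

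Towards the 5′ end the calls of Myh7 went on. The authors' deposited table gave peak 3, at 54979350 to 54980347, a change of 2.70 (FDR 0.038), the smallest of the 6. For peak 2, at 54983245 to 54983638, the authors' deposited table had 3.91 (FDR 8.13e-04). Peak 1, the most 5′ at 54983698 to 54984553, had the largest change, 4.42, and did not pass, as the authors' deposited table put its FDR at 0.497. It was also the shortest, with 91 nt against 121 to 420 nt for the others. No peak of Myh7 was listed 5′ of it in this comparison.

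Enrichment within Myh7 did not run in parallel with the changes. Fold enrichment over input in the authors' deposited table was, from peak 1 at the 5′ end to peak 6 at the 3′ end, 70.2, 43.4, 20.2, 28.1, 19.5 and 12.7. The log2 changes in the same order were 4.42, 3.91, 2.70, 3.63, 3.80 and 4.35 in the authors' deposited table. The lowest change thus sat in the middle of the series, and the peaks at either end, with the highest and the lowest enrichment, had nearly the same change. The median fold enrichment over all peaks of that table was 65.7, so 5 of the 6 Myh7 peaks were below it. By enrichment p the strongest was peak 5, with a log10 value of -9.34, at rank 13 of 116.

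Myh6 had a single listed peak in the MI comparison. Changes below 1.01 in size are absent there, so other Myh6 peaks may exist in these hearts without being listed. The listed peak lay near the 5′ end, at 54963630 to 54965476. Its centre was at 13.3% of the gene span, and it consisted of 3 blocks with 390 nt. Its log2 change was -2.56 in the authors' deposited table, a value 5.90-fold higher in sham than in MI, and the FDR was 0.027. Only 1 other peak of the table passed with a negative change. The 14 block positions that Myh6 shares by length with Myh7 lie 3′ of this peak, so the fall in Myh6 and the rises in Myh7 were not measured at matching places of the paralogs.

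Per the authors' deposited table Mhrt rose by 2.13 on the log2 scale, or 4.38-fold (FDR 0.036). Its peak was 1 block of 326 nt at 54973965 to 54974290, and it ended 59 bp before the 3′ end of the gene. The change of Mhrt was smaller than that of every listed Myh7 peak, which began at 2.70. The difference between the genes was not tested. The whole Mhrt peak lies in the span of Myh7, and it shares 102 nt with Myh7 peak 5 on the other strand. As the use of strand is not stated, whether Mhrt rose apart from Myh7 was not tested.

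**Figure D2:**
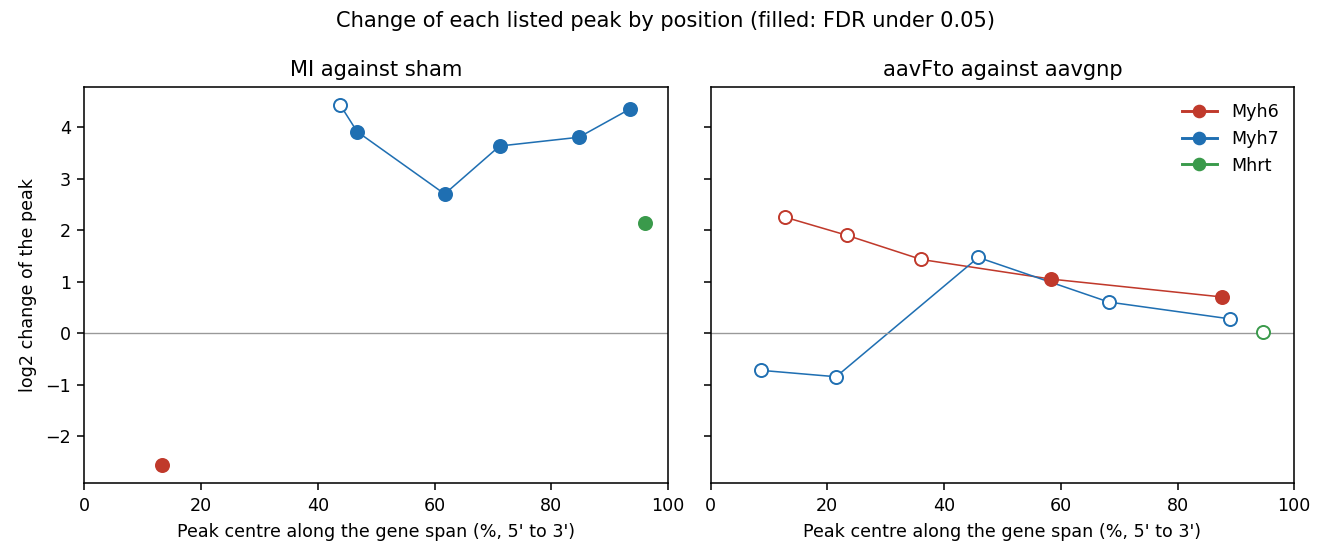
The log2 change of each listed peak (vertical axis) against the position of its centre along the gene span in percent from the 5′ end (horizontal axis), for MI against sham on the left and aavFto against aavgnp on the right. Filled points have an FDR under 0.05. After MI the Myh7 points lie between 2.70 and 4.42 and the Myh6 point at -2.56, and with aavFto the Myh6 points step down from 2.25 at the 5′ end to 0.70 at the 3′ end.

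The second comparison set m6A of aavFto hearts against m6A of aavgnp hearts, all with MI. Myh6 rose at 2 long peaks, and no peak of Myh7 or Mhrt passed the FDR. Those 2 calls among 11 peaks compare with 1.72% of the 465 listed peaks. Of the 11 peaks 9 were positive, all 5 of Myh6, 3 of 5 of Myh7 and that of Mhrt, where 32.7% of all listed peaks were positive. The median log2 change was 0.70 over the 11 peaks and -0.61 over all listed peaks. An unadjusted p under 0.05 was reached by 5 of the 11, all in Myh6, and by 4.3% of the listed peaks. In the MI comparison the 7 called member peaks were also those with an unadjusted p under 0.05, which 25.9% of all listed peaks there reached.

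The called Myh6 peaks covered the 3′ part of the transcript. Peak 4, with 12 blocks and 2095 nt at 54948647 to 54956941, had in the authors' deposited table a log2 change of 1.05, a 2.07-fold higher value with aavFto, with an FDR of 8.13e-10. Its differential p and its enrichment p were each the second-smallest of the table. Peak 5, with 9 blocks and 1467 nt, reached from 54948403 to the 3′ end of the gene at 54941921 and was given 0.70 (FDR 0.0021) by the authors' deposited table. Of its bases 14.9% lie in the span of Cmtm5, a gene on the plus strand whose 3′ end overlaps that of Myh6 and which has no listed peak. Peak 4 lies around Mir208a, and 43.6% of its bases lie in the span of Gm52092, a noncoding gene whose strand the tables used here do not hold.

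The other 3 Myh6 peaks had larger changes and did not pass. From the 5′ end the authors' deposited table gave 2.25 (FDR 0.596) for peak 1, 1.90 (FDR 0.235) for peak 2 and 1.43 (FDR 0.713) for peak 3. Along the gene the 5 changes therefore became smaller at each step, 2.25, 1.90, 1.43, 1.05 and 0.70 in the authors' deposited table. The enrichment p moved with this order in part, from a log10 of -7.29 at peak 1 through -13.9 and -10.2 to -36.2 and -33.8, and its part in the order was not tested. Among the 18 genes with at least 4 listed peaks in that table, Myh6 was the 1 gene whose changes fell strictly from 5′ to 3′, and in 1 gene, Atp5b, they rose strictly. This order was noticed in the values and is a description.

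Myh7 showed no called change with aavFto. From the 5′ end its 5 peaks were listed in the authors' deposited table at -0.72, -0.84, 1.47, 0.61 and 0.28. All had an FDR of 0.713, the value that 443 of the 465 listed peaks share. The 2 negative peaks, at 54992336 to 54992775 and 54988916 to 54990040, were the shortest and weakest of the gene, with 151 and 330 nt and a log10 enrichment p of -5 and -5.96. The 3 positive peaks had 899 to 1198 nt and log10 values of -16.1 to -23.4. Whether the changes of Myh6 and Myh7 differed in this comparison was not tested. Myh6 had the most bases under peaks of the 271 named genes, 5360 nt, and Myh7 stood at rank 5 with 3626 nt.

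The paralogs differed in enrichment in the aavFto table. Fold enrichment over input lay between 16.5 and 50.3 for the 5 Myh6 peaks and between 58.8 and 105 for the 5 Myh7 peaks in the authors' deposited table, with no overlap. The median over all listed peaks was 54.3, below every Myh7 peak and above every Myh6 peak. By enrichment p the order was less clear, with a median log10 of -13.9 for Myh6 and -16.1 for Myh7. The strongest values of the 2 genes were those of Myh6 peaks 4 and 5, at -36.2 and -33.8, against -23.4 for Myh7 peak 4. The change of Mhrt was 0.033 (FDR 0.713) in the authors' deposited table, with a fold enrichment of 22.

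**Figure D3:**
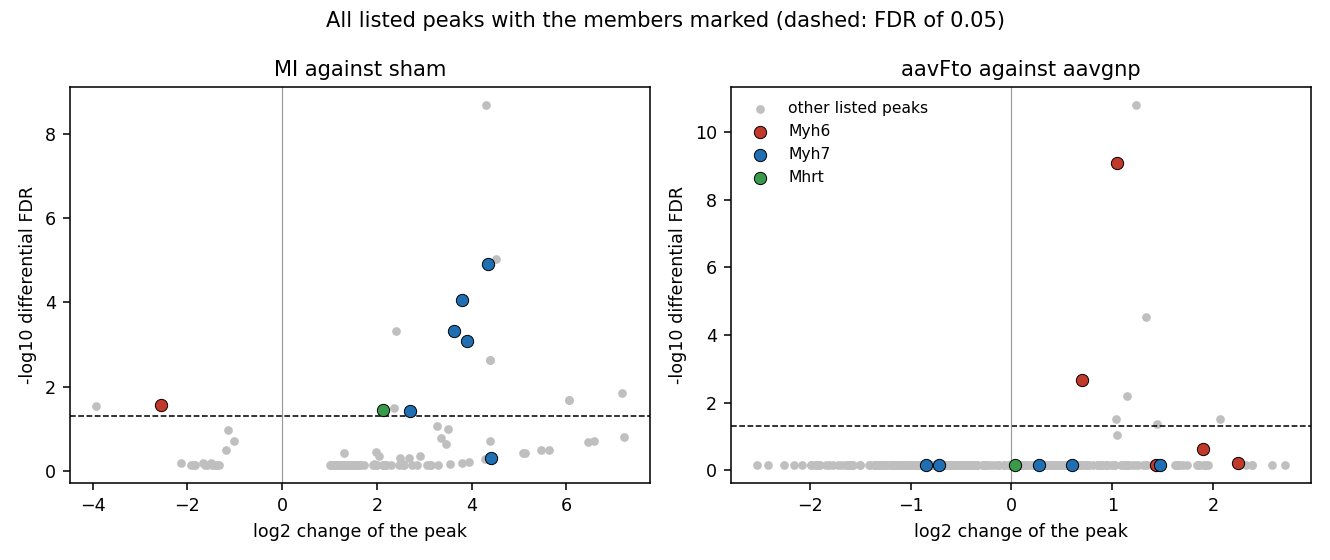
All listed peaks by log2 change (horizontal axis) and -log10 of the differential FDR (vertical axis), for MI against sham on the left and aavFto against aavgnp on the right, with the peaks of Myh6, Myh7 and Mhrt in colour and the dashed line at an FDR of 0.05. In the left panel 7 of the 8 coloured points lie above the line, and in the right panel 2 of 11 do, both in Myh6.

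Every member peak of the MI table shared bases with an aavFto-table peak of the same gene and strand. The 6 Myh7 peaks and the Myh6 peak lay wholly inside aavFto-table peaks, and the Mhrt peak shared 208 of its 326 nt. The shared bases made up 94.4% of the MI-table bases and 21.5% of the aavFto-table bases, since the aavFto-table peaks were longer and reached further. The sign was the same in both tables at 7 of the 8 and opposite at 1. These 8 pairs rest on only 5 aavFto-table peaks, since the 6 Myh7 pairs fall on 3 of them, so they are not independent. Of all listed peaks 84.5% were positive for MI and 32.7% for aavFto. The overlap and the agreement in sign over all listed peaks are not given here. The tables differ in which peaks they list, since changes below 1.01 in size are absent from the MI table, and the 2 sets of values are given side by side without a test.

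At the 5′ end of Myh6 the values were -2.56 for MI over sham and 2.25 for aavFto over aavgnp, each from the authors' deposited table of that comparison. The MI-table peak there covered 86.9% of the aavFto-table peak, and fold enrichment was 33.5 in both. The first value passed the FDR and the second, at 0.596, did not. Under Myh7 peaks 5 and 6 of the MI table, at 3.80 and 4.35, the authors' deposited table for aavFto gave 0.28. Under peaks 3 and 4, at 2.70 and 3.63, the authors' deposited table for aavFto gave 0.61, and under peaks 1 and 2, at 4.42 and 3.91, it gave 1.47. Both changes of Myh7 were thus positive throughout this stretch, and those of MI against sham were larger at each peak.

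**Figure D4:**
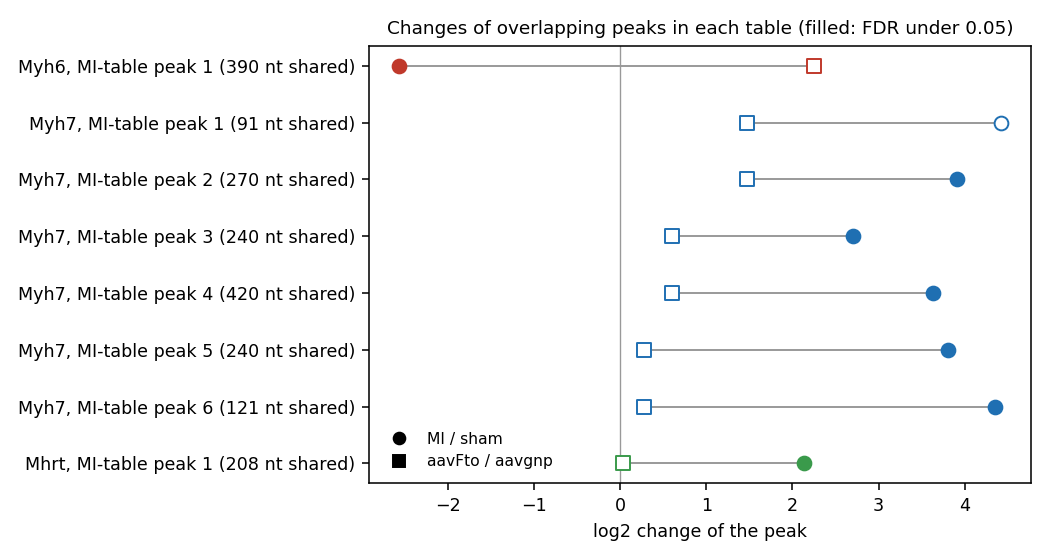
The log2 change of each MI-table peak (circles) and of the aavFto-table peak that shares bases with it (squares), with peaks numbered from the 5′ end of the gene. Filled symbols have an FDR under 0.05. The Myh6 pair lies on either side of 0, at -2.56 and 2.25, and the 6 Myh7 pairs and the Mhrt pair lie above 0 in both tables. The squares of the 6 Myh7 pairs stand for 3 aavFto-table peaks.

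Mhrt and Myh7 overlapped on opposite strands in both tables. In the MI table the Mhrt peak and Myh7 peak 5 shared 102 nt, from 54973965 to 54974066, which is 31.3% of the Mhrt peak and 42.5% of the Myh7 peak. In the aavFto table the Mhrt peak and Myh7 peak 5 of that table shared 132 nt, from 54973935 to 54974066, which is 55.5% of the Mhrt peak and 11.0% of the Myh7 peak. The rest of each Mhrt peak, 224 nt after MI and 106 nt with aavFto, lay beyond the last base of this Myh7 block and in no Myh7 block of either table. The Mhrt peak thus did not lie wholly on bases under a Myh7 peak.

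The values of the overlapping peaks were not alike after MI. There the authors' deposited table gave 2.13 for Mhrt and 3.80 for Myh7, a difference of -1.67, and fold enrichments of 46.4 and 19.5. With aavFto the authors' deposited table gave 0.033 and 0.28, with fold enrichments of 22 and 93.1. Among the other overlapping pairs on opposite strands, the log2 changes were equal in 2 of 6 for MI and in 1 of 7 for aavFto, and within 0.05 of each other in 4 of 6 and 4 of 7. Mhrt with Myh7 was outside that range in both tables. The pairs within 0.05 shared a larger part of their longer peak than those outside it. One such pair with aavFto, Srsf4 with Gm12992, shared 208 of 210 nt. Outside the range were also pairs of Nppa after MI, with 148 and 327 of 830 nt shared (differences 1.54 and 0.13). With aavFto an Nppa pair shared 491 of 830 nt (difference 0.227). Pairs of Ckm with aavFto shared 131 and 180 of 1268 nt (differences 2.309 and 1.38). Several pairs lie at the same place, at Nppa, Neat1 or Ckm, and are not independent. The sources used here do not say whether reads were counted by strand, so reads of Myh7 and Mhrt over the shared bases cannot be told apart.

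**Figure D5:**
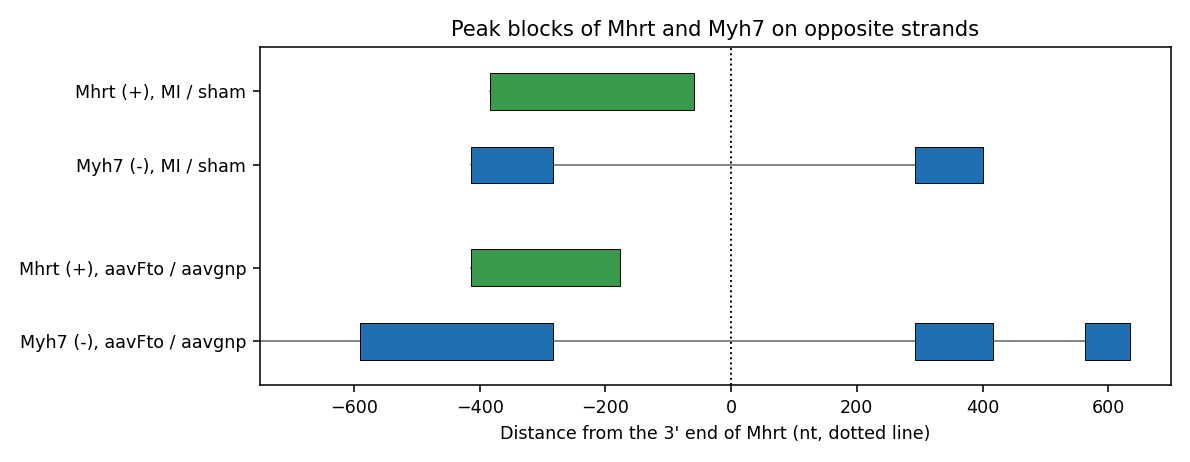
Peak blocks of Mhrt (plus strand) and of the Myh7 peak that overlaps it (minus strand) in each comparison, with distance from the 3′ end of Mhrt in nt on the horizontal axis. The Mhrt block starts under a Myh7 block and extends beyond it, by 224 nt in the MI table and by 106 nt in the aavFto table. Both extensions lie in the gap before the next block of that Myh7 peak.

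The 4 Myh7 peaks 1 to 4 of the MI table and the 4 Myh7 peaks 1 to 4 of the aavFto table lay wholly inside the span of Gm31251, which is antisense to Myh7 and has no listed peak in either table. For aavFto, 83.5% of the 1198 nt of Myh7 peak 5, or 1000 nt, lay in the span of Mhrt, against 1 Mhrt peak of 238 nt. For MI the order was the other way round, with 253 nt of Myh7 peaks in the span of Mhrt against 326 nt of the Mhrt peak.

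Around the locus, 3 lists of related genes were looked at, with each gene represented by its peak of smallest FDR. Among all listed peaks 84.5% were positive and 14.7% called for MI, and 32.7% were positive and 1.72% called for aavFto. Those shares count every peak, whereas taking the peak of smallest FDR per gene favours calls. Of 17 thick filament genes and partners 2 had a listed peak in the MI table, both negative and neither called, and the authors' deposited table gave -2.13 (FDR 0.643) for Mybpc3, the myosin binding protein C. With aavFto 7 were listed, 4 positive and 3 negative, and 2 rose. They were Myl2, the ventricular regulatory light chain that sits on the myosin neck, at 1.15 (FDR 0.0065), and Mybpc3, at 1.04 (FDR 0.031), in the authors' deposited table. Of 7 fetal and stress genes 3 were listed after MI, all positive, and 2 of these rose, Nppa (atrial natriuretic peptide) at 4.52 and Ankrd1 (a stress-responsive sarcomere protein) at 2.40 in the authors' deposited table. With aavFto 6 were listed, 5 positive and 1 negative, and none passed the FDR. Of 18 regulators of the myosin genes, among them Gata4, Mef2c, Tbx5 and Smarca4, which encodes Brg1, none had a listed peak in either table.

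Markers of cardiomyocytes and of other cell types were looked up in both tables by the same rule, and the shares of all listed peaks given above apply to them too. All 10 cardiomyocyte markers on the list had a peak in the aavFto table, 7 positive and 3 negative. Of these 10 markers 3 rose, Tnnt2, Myl2 and Mybpc3, and Myl2 and Mybpc3 are the calls already given for the thick filament list. After MI 3 of these 10 were listed, 1 positive and 2 negative, and 1 fell. Of 8 fibroblast markers 4 were listed after MI, all positive and 2 called, and with aavFto 4 were listed, 1 positive and 3 negative with no call. Macrophage markers had 2 of 7 listed after MI, both positive, and endothelial markers 2 of 5, both positive, with no call, beside 84.5% positive among all peaks of that table. With aavFto 3 macrophage markers were listed, 1 positive and 2 negative, and 2 endothelial markers, both negative, with no call, beside 32.7% positive among all peaks. Of 5 skeletal muscle markers none was listed after MI. With aavFto 1 was listed, Acta1, at 0.455 without a call. The skeletal muscle myosins Myh1, Myh2 and Myh4 had no listed peak in either table. The part of cell composition in the changes of Myh6, Myh7 and Mhrt was not tested.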

How the data were processed

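MeRIP and input libraries of left ventricle, 1 of each per group, went through STAR 2.5.3a, with mm10 as the build, as the submitters' processing notes state. The sources used here name no peak caller, settings, library scaling or use of strand. The deposited tables give, per the file headers, the enrichment p-value of each peak, log10 values of p and FDR, the fold enrichment as a linear ratio, and the log2 change between groups. These values are the authors' own, and no p-value was computed here. Log10 values were converted to FDR for printing.

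Gene IDs were matched to RefSeq symbols (GRCm38.p6), and all 3 matched. Coordinates were made 1-based. DRACH words were searched in RefSeq start-site windows on both strands. Overlap meant at least 1 shared base of the blocks, checked on simulated peaks. Block lengths of Myh6 and Myh7 were matched as the longest common series of equal lengths. Python 3.11.15 and pandas 2.3.3 were used. Every listed peak of the 3 genes is reported. Of other genes, those with the smallest FDR in each list were to be named, up to 4, and not all are reported. Members and lists were chosen with earlier results of these data known. Alternatives covered thresholds, the size of change, merged peaks and the overlap rule. No genome was used.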

Additional observations from a re-analysis of the deposited data

How the results depend on the processing

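Of 24 alternatives over 6 counts, 6 could not move a count and say nothing of stability, since all MI-table peaks exceed the size limit (2) and no member peaks of a gene overlap within a table, so that merging left them as they were (4). Of the other 18, 11 stayed within 1.5 times the reported value. Of these 11, 1 could not move either, since whole spans contain the blocks and all 8 MI-table peaks already shared bases. The 7 member peaks called after MI became 4, all in Myh7, at an FDR of 0.01, so the calls of Myh6, Mhrt and Myh7 peak 3 rest on the threshold. The 2 Myh6 calls with aavFto became 5 at an unadjusted p under 0.05 and 1 with a log2 change of at least 1. That size limit also left 5 of the 9 positive aavFto peaks. With the sign read the other way round, an alternative chosen after seeing the data, 1 peak would be positive after MI and 2 with aavFto. This follows directly from the counts of signs. With at least 50% of the shorter peak shared, 2 of the 4 peaks that overlap on opposite strands were left, both with aavFto. No paired analysis was possible because each group has 1 library. Depth is unknown, so what it limits was not assessed.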
